A study of Arabidopsis thaliana with 8 samples.

Results

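The effect of a MIR156 transgene was examined in plants that already carried the se-1 lesion, by setting se-1 p35S::MIR156 apices against se-1 apices. The 2 arrays of each genotype, 4 of the 8 arrays of the series, entered the comparison, and it was made across all probe sets of the Affymetrix ATH1 array other than its controls, including those that the annotation table pairs with no gene. Each array held RNA from vegetative apices of Arabidopsis thaliana plants aged 20 days and kept in short days. Both genotypes carry se-1, an allele that weakens but does not abolish SERRATE (SE), so the lesion was present on both sides and the transgene was the labelled difference. In p35S::MIR156 a miR156 precursor is driven by the viral 35S promoter, which is active in most plant tissues and does not follow the native pattern of MIR156. Arrays of ago1-27, a weak allele of ARGONAUTE1, and of the wild type Col-0, 2 each and of the same age and conditions, entered the filter on dim probe sets and the estimate of the spread and are given as levels. After the data were seen, ago1-27 was also compared with Col-0 to follow the called probe sets there. The number of transgenic lines and whether apices were pooled are not given in the sources used here.

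The microRNA miR156 pairs with the transcripts of a group of SPL transcription factors and lowers their output, which holds a plant in its juvenile phase. As these SPL proteins accumulate they promote adult leaf traits and flowering, partly by activating MADS-box genes at the apex, and SPL9 is known to lower anthocyanin genes such as DFR. SE is a zinc-finger protein that helps the Dicer enzyme cut microRNAs from their precursors, and plants with weakened SE accumulate less of many microRNAs. The levels of miR156 and of the transgene transcript were not analysed here. None of the 11 SPL genes that miR156 targets had a listed probe set, so any probe sets of theirs are among those not paired with 1 gene, and the transgene label was not checked from them. SE itself had signals of 130.3 and 161 in se-1 p35S::MIR156 apices, against 117 and 117 in se-1 apices (log2 change 0.28, 95% interval -0.13 to 0.70, adjusted p = 0.720).

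The deposited signals had been scaled by the authors to one trimmed mean on every array, and medians were 78.9 to 79.8 in se-1 p35S::MIR156 and 81.5 to 82.0 in se-1. The brightest of 27 bacterial control probe sets, taken as the background of an array, lay at 14.2 and 18.3 in se-1 p35S::MIR156 and at 18.0 and 30.2 in se-1. The ratio of 3' to 5' actin control signals, which reflects RNA integrity and labelling, was 3.26 and 3.48 in se-1 p35S::MIR156 and 2.97 and 4.22 in se-1. The same ratio for GAPDH controls was 1.28 and 1.43 in se-1 p35S::MIR156 and 1.41 and 1.18 in se-1. Between replicate arrays 111 of 15922 probe sets differed by at least 2-fold in se-1 p35S::MIR156 and 224 in se-1. Of 15 shoot apex markers 2 had a listed probe set: YAB3, a leaf primordium gene, was above background on all 8 arrays, and CLV3, expressed in few cells of the meristem, was within background on 7 of them. No floral organ marker had a listed probe set. Whether the replicates are separate sets of plants is not stated in the labels, and p-values therefore reflect only how far these samples differed, which may be technical. In whole apices, fewer cells of a type and less RNA per cell cannot be told apart.

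With 2 arrays of each genotype a small number of differences passed the threshold, most of them at least 2-fold, and smaller ones may have been missed. On log2(signal + 16), with the dimmest 30% of probe sets left out, 57 of 15922 probe sets were called, that is, had a Benjamini-Hochberg adjusted p under 0.05 in limma, which is 0.358%. Of these 35 were higher in se-1 p35S::MIR156 than in se-1 (0.22% of those tested) and 22 were lower (0.138%), and 49 differed by at least 2-fold. Log2 changes ran from -2.58 to 2.05 over all tested probe sets, with a median of -0.03, and most lay between -0.49 and 0.45, the 5th and 95th percentiles. A further 48 probe sets differed by at least 2-fold without being called, and 1439 of all tested had an unadjusted limma p under 0.05. The arrays of the 2 genotypes did not overlap for any of the 57, as for 6637 (41.7%) of all tested probe sets. In place of 57, there were 19 calls when se-1 p35S::MIR156 replicate 1 was left out, 10 when its replicate 2 was, 25 without se-1 replicate 2, 25 with a variance prior that ignores signal, and 15 (0.0659% of 22746) with no filter on dim probe sets. ZW9, AT3G28500 and CYP71B22, together with 4 probe sets of no listed gene, were called under each of the 18 alternatives run for single probe sets.

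**Figure D1:**
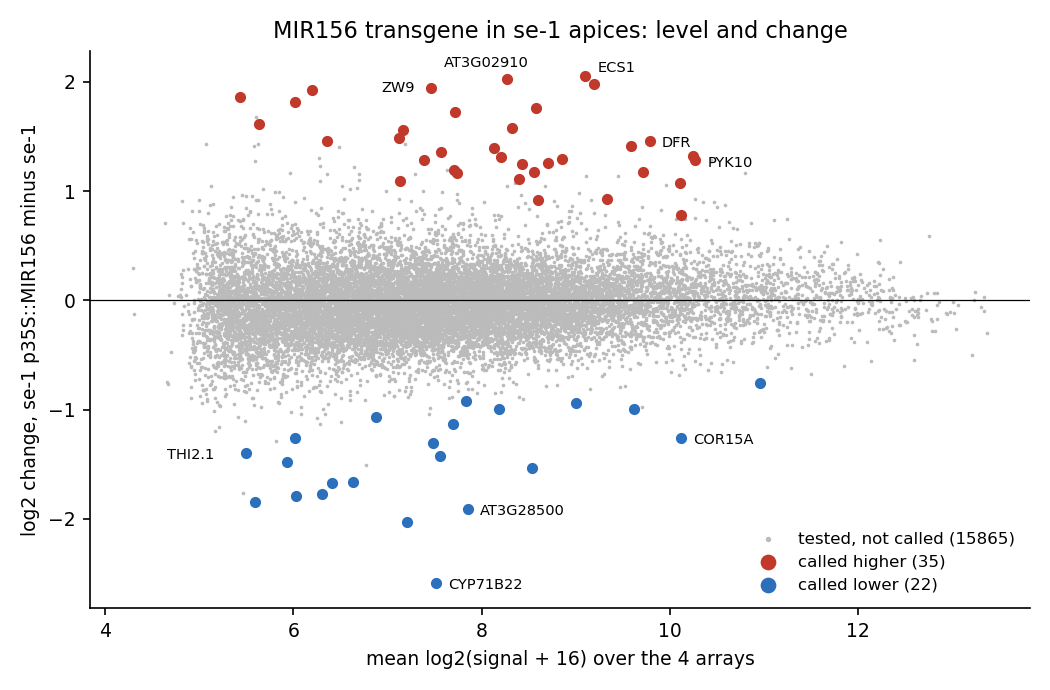
Each point is 1 of 15922 probe sets, with its mean log2(signal + 16) over the 4 arrays on the horizontal axis and its log2 change, se-1 p35S::MIR156 minus se-1, on the vertical axis. Red points are the 35 called higher and blue points the 22 called lower; the largest fall is CYP71B22 at -2.58 and the largest rise ECS1 at 2.05.

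Among genes of the flowering pathway, AGL42 fell with the transgene. AGL42 encodes a MADS-box protein that promotes the floral transition at the apex, and SPL9 is known to activate it. Its signals were 36.1 and 27.6 in se-1 p35S::MIR156, against 134 and 138 in se-1 (log2 change -1.67, SE 0.241, adjusted p = 0.00430). Both transgenic arrays lay far below both se-1 arrays, and also below the ago1-27 arrays at 173 and 102 and the Col-0 arrays at 67.2 and 60.1. FD, the bZIP partner of the florigen FT, had 27.8 and 28.4 in se-1 p35S::MIR156 and 69.1 and 77.6 in se-1, with no overlap, as for 24.7% of all tested probe sets in this direction, but missed the threshold (log2 change -1.02, 95% interval -1.52 to -0.51, adjusted p = 0.105). The MADS-box genes AGL19 and AGL24, both promoters of flowering, overlapped between the genotypes. AGL19 had 37.7 and 35.8 in se-1 p35S::MIR156 and 35.8 and 54.4 in se-1 (log2 change -0.19, 95% interval -0.74 to 0.35, adjusted p = 0.875). AGL24 had 264 and 266 in se-1 p35S::MIR156 and 193 and 278 in se-1 (log2 change 0.18, 95% interval -0.27 to 0.64, adjusted p = 0.858). Thus 1 of the 4 tested members of a list of 13 flowering promoters was called lower, beside 0.138% of all tested probe sets, and the median log2 change of the 4 was -0.61, beside -0.03 over all tested probe sets. The AGL42 call ended without se-1 p35S::MIR156 replicate 2 (adjusted p = 0.0974) and with no filter (0.0899).

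None of the 4 tested members of a list of 19 floral repressors was called, and their median log2 change was 0.28. SNZ and SMZ are AP2-like repressors that miR172, the microRNA acting after miR156 in the ageing pathway, targets. SNZ had 65.7 and 59.0 in se-1 p35S::MIR156, against 27.1 and 4.13 in se-1, where the lower value lay within background, so that the fitted change depends on the pseudocount (log2 change 1.41, 95% interval 0.60 to 2.22, adjusted p = 0.206). SMZ had 70.0 and 74.0 in se-1 p35S::MIR156 and 49.3 and 55.2 in se-1 (log2 change 0.37, 95% interval -0.15 to 0.88, adjusted p = 0.702). For both genes the transgenic arrays lay above the se-1 arrays without overlap, as for 17% of all tested probe sets. The MADS-box genes AGL18 and AGL16 are known to delay flowering. AGL18 had 129 and 109 in se-1 p35S::MIR156 and 155 and 169 in se-1 (log2 change -0.40, 95% interval -0.83 to 0.03, adjusted p = 0.575). Here the transgenic arrays lay below the se-1 arrays without overlap, as for 24.7% of all tested probe sets. AGL16, whose arrays overlapped, had 152 and 129 in se-1 p35S::MIR156 and 111 and 133 in se-1 (log2 change 0.18, 95% interval -0.41 to 0.78, adjusted p = 0.896). Of 6 SPL genes without a miR156 site, only SPL16 (AT1G76580) had a listed probe set, with 93.4 and 98.5 in se-1 p35S::MIR156 and 82.7 and 65.7 in se-1 (log2 change 0.32, 95% interval -0.27 to 0.91, adjusted p = 0.800). TRY, a single-repeat MYB gene that limits trichome formation and that SPL9 is known to activate, had 15.5 and 14.3 in se-1 p35S::MIR156 and 30.9 and 26.0 in se-1. Its arrays did not overlap, but 1 array of each genotype was within background and the change missed the threshold (log2 change -0.52, 95% interval -1.15 to 0.10, adjusted p = 0.633). GIS, a zinc-finger regulator of trichomes, had a log2 change of -0.12 (adjusted p = 0.918).

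**Figure D2:**
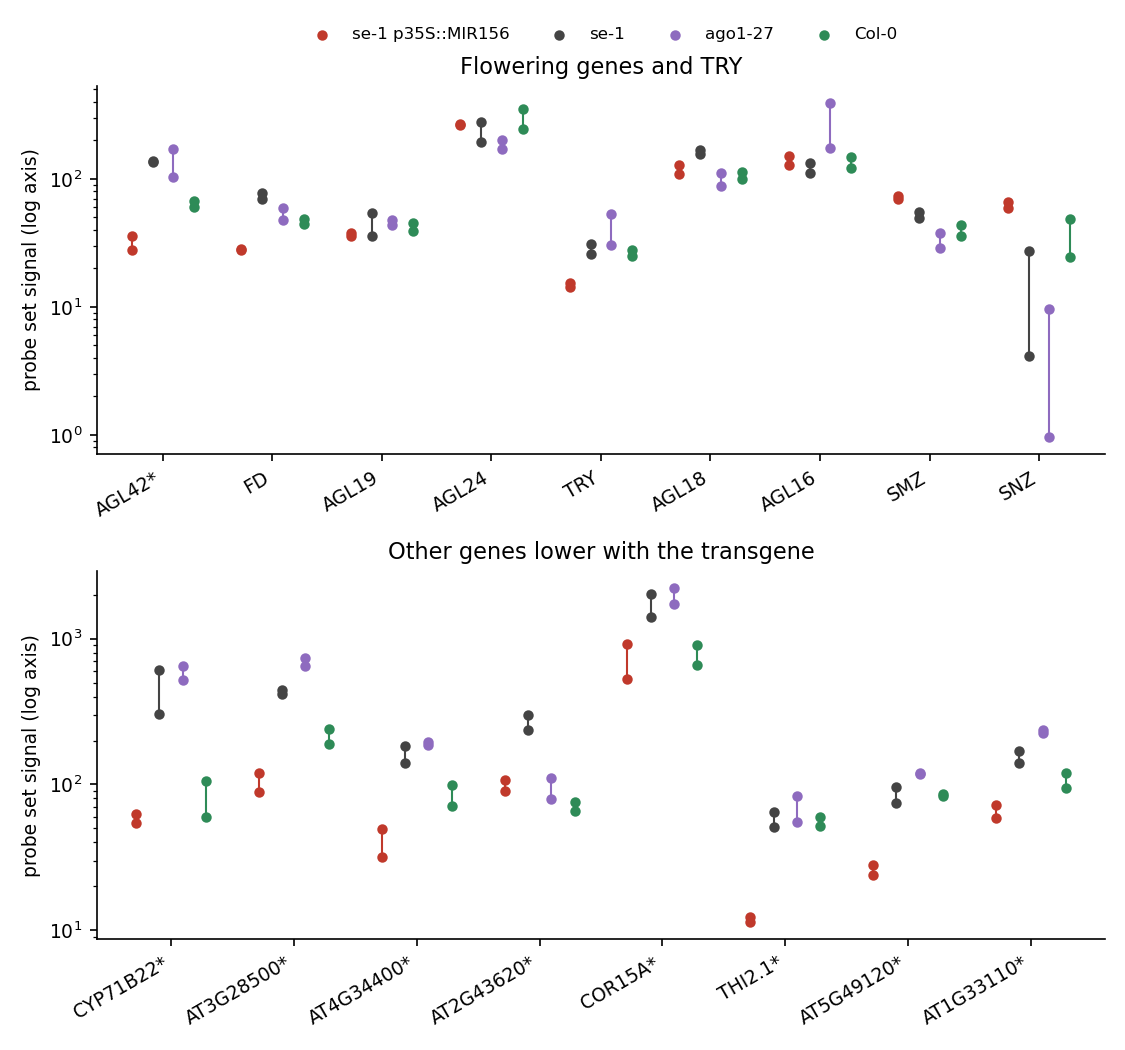
Signals on a log axis for each array, with the 2 arrays of a genotype joined by a line: flowering genes and TRY above, other genes lower with the transgene below. Asterisks mark called genes; the se-1 p35S::MIR156 signals of AGL42 (36.1 and 27.6) and of CYP71B22 (62.9 and 54.4) lie below both se-1 signals.

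Of 7 tested genes of flavonoid and anthocyanin synthesis 3 were higher in transgenic apices. DFR encodes dihydroflavonol reductase, which opens the anthocyanin branch, and had signals of 1223 and 1709.8 in se-1 p35S::MIR156, against 636 and 417 in se-1 (log2 change 1.46, SE 0.238, adjusted p = 0.0110). UF3GT, a flavonoid glycosyltransferase, had 238 and 199 in se-1 p35S::MIR156 and 72.5 and 61.9 in se-1 (log2 change 1.49, SE 0.233, adjusted p = 0.00824). AT4G14090, held in the same list as the glycosyltransferase gene UGT75C1, had 492 and 542 in se-1 p35S::MIR156 and 252 and 172 in se-1 (log2 change 1.25, SE 0.247, adjusted p = 0.0433). For all 3 the lower transgenic array was above the higher se-1 array. Their levels elsewhere differed: DFR had 342 and 526 in ago1-27 and 771 and 911 in Col-0, UF3GT 132 and 213 in ago1-27 and 216 and 295 in Col-0, and AT4G14090 137 and 195 in ago1-27 and 202 and 335 in Col-0. The UF3GT signals of se-1 were thus the lowest of the 4 genotypes, whereas those of the transgenic apices overlapped Col-0.

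The remaining tested genes of the pathway had positive changes that did not pass the threshold. UGT78D2, which adds glucose to flavonoids, had 527 and 653 in se-1 p35S::MIR156 and 352 and 284 in se-1 (log2 change 0.86, 95% interval 0.46 to 1.26, adjusted p = 0.0794). The anthocyanin malonyltransferase gene 5MAT had 268 and 336 in se-1 p35S::MIR156 and 198 and 149 in se-1 (log2 change 0.75, 95% interval 0.30 to 1.19, adjusted p = 0.239). CHIL, which encodes a chalcone isomerase-like protein, had 332 and 423 in se-1 p35S::MIR156 and 289.6 and 185 in se-1 (log2 change 0.66, 95% interval 0.16 to 1.16, adjusted p = 0.388). UGT78D1, a flavonol rhamnosyltransferase gene, had the smallest change of the 7, with 385 and 439 in se-1 p35S::MIR156 and 376 and 281 in se-1 (log2 change 0.32, 95% interval -0.08 to 0.73, adjusted p = 0.659). In each of these 4, as in the 3 called genes, both transgenic arrays lay above both se-1 arrays, which held for 2711 (17%) of all tested probe sets. Of the 21 enzymes listed 9 had a listed probe set, UGT78D3 and BAN were too dim to be tested, and 3 of the 7 tested were called higher, beside 0.22% of all tested probe sets. The median of the 7 was 0.86, with a range of 0.32 to 1.49, beside -0.03 over all tested probe sets. Within se-1, replicate 1 was above replicate 2 for all 7, and within se-1 p35S::MIR156, replicate 2 was above replicate 1 for 6, against 50.2% and 51.2% of all tested probe sets. None of 13 regulators of the pathway had a listed probe set. The 3 calls ended without se-1 p35S::MIR156 replicate 2, when se-1 replicate 2 was left out and when dim probe sets were kept, and those of UF3GT and AT4G14090 without se-1 p35S::MIR156 replicate 1 (adjusted p between 0.0816 and 0.460). The AT4G14090 call also ended with pseudocount 1 (0.0639), and it and that of DFR with a variance prior that ignores signal (between 0.0856 and 0.166).

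A second group of rises came from a list of ER body and jacalin lectin genes. The ER body is an endoplasmic reticulum-derived compartment that stores beta-glucosidases and is linked to defence against herbivores. PYK10, its main beta-glucosidase, had signals of 2337 and 1545 in se-1 p35S::MIR156, against 639 and 933 in se-1 (log2 change 1.28, SE 0.247, adjusted p = 0.0356). The jacalin-related lectins JAL22, JAL33 and JAL34 are known to associate with PYK10 in complexes. JAL34 had 426 and 456 in se-1 p35S::MIR156 and 139 and 178 in se-1 (log2 change 1.40, SE 0.192, adjusted p = 0.00302). JAL33 had 589 and 515 in se-1 p35S::MIR156 and 242 and 226 in se-1 (log2 change 1.18, SE 0.180, adjusted p = 0.00695), and JAL22 had 451 and 512 in se-1 p35S::MIR156 and 208 and 220.4 in se-1 (log2 change 1.11, SE 0.199, adjusted p = 0.0213). All 4 were more than 2-fold higher with no overlap between the genotypes. Such separation in this direction held for 17% of all tested probe sets, and none of the 57 called probe sets overlapped. In the other genotypes PYK10 had 211 and 123 in ago1-27 and 1648 and 1678 in Col-0, and JAL34 had 63.9 and 59.5 in ago1-27 and 263 and 221 in Col-0. For each of the 4 genes ago1-27 was the lowest genotype and the Col-0 arrays lay above both se-1 arrays.

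NAI2, a protein needed for ER body formation, had 776 and 672 in se-1 p35S::MIR156 and 279.9 and 453 in se-1, with no overlap, and missed the threshold (log2 change 0.99, 95% interval 0.51 to 1.46, adjusted p = 0.0942). It was called when se-1 replicate 2 was left out (log2 change 1.32, adjusted p = 0.0415). JAL23, a further lectin of the family, did not follow the others, with 487 and 307 in se-1 p35S::MIR156 and 421 and 393 in se-1 (log2 change -0.07, 95% interval -0.59 to 0.45, adjusted p = 0.969). Nor did NAI1, also in this list, with 108 and 96.5 in se-1 p35S::MIR156 and 105 and 111 in se-1 (log2 change -0.07, 95% interval -0.52 to 0.39, adjusted p = 0.961). NAI1 was not followed under the alternatives. Of the 18 genes of this list 7 were tested and 4 were called higher, beside 0.22% of all tested probe sets. The median log2 change of the 7 was 1.11, with 5 changes positive and 2 negative. The JAL genes encode related proteins, and whether their probe sets share signal was not tested. PYK10 is also a marker of roots. Over the 3 root markers with a listed probe set, of 8, the summed signal was 2354 and 1554 in se-1 p35S::MIR156 and 681 and 963 in se-1, nearly all of it from PYK10, and EXP7 was within background on all 8 arrays and EXP18 on 6. Of the 4 calls, those of JAL33, JAL22 and PYK10 ended without se-1 p35S::MIR156 replicate 1, all 4 when its replicate 2 was left out, those of PYK10 and JAL22 without se-1 replicate 1, with no filter and with a prior that ignores signal, and those of JAL33 and JAL22 without se-1 replicate 2 (adjusted p between 0.0772 and 0.378). The PYK10 call also ended without either Col-0 array (0.0777 and 0.0769) and with pseudocount 1 (0.0607).

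**Figure D3:**
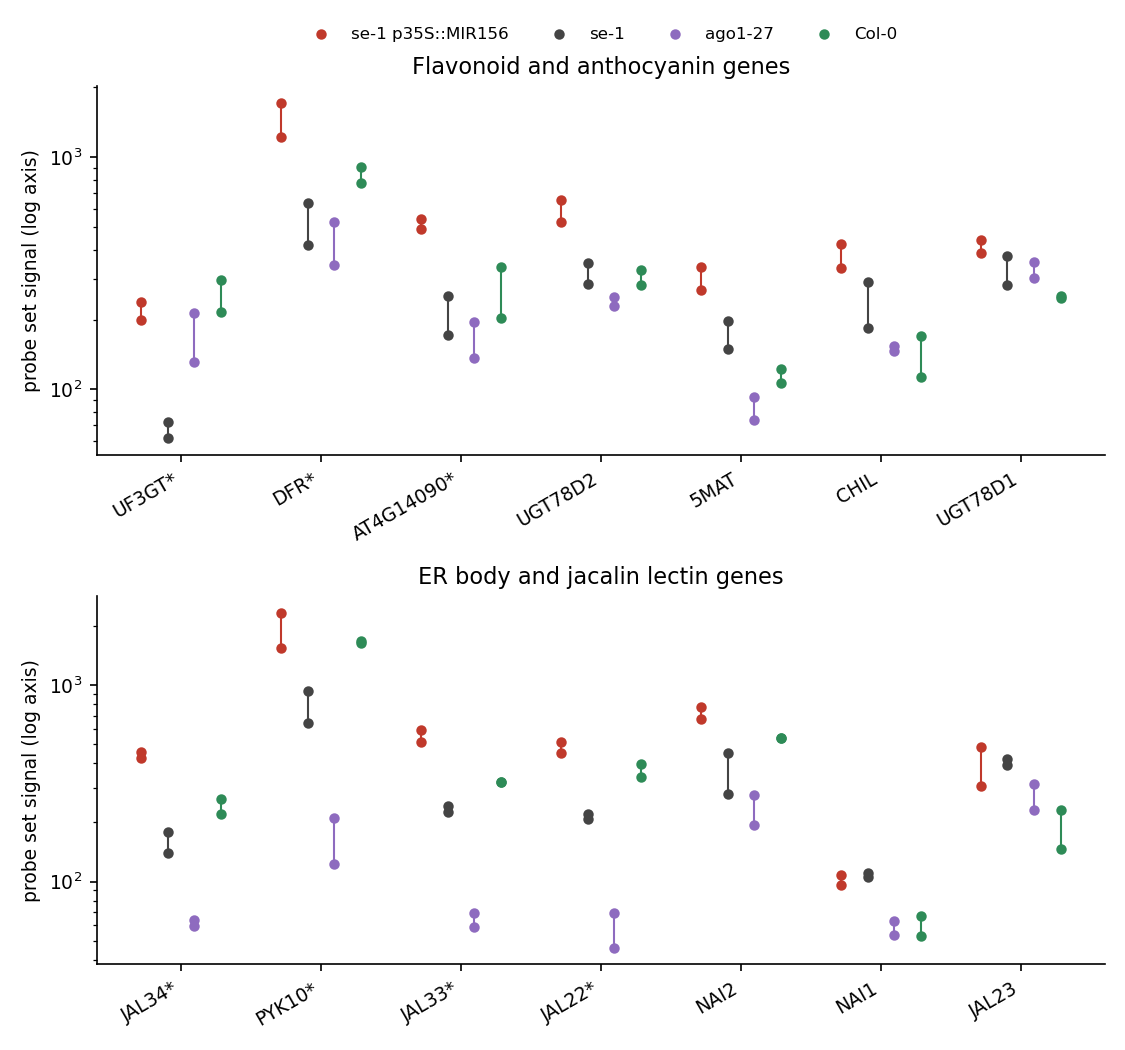
Signals on a log axis for each array, 2 arrays per genotype joined by a line, for the 7 tested flavonoid and anthocyanin genes (above) and the 7 tested ER body and jacalin lectin genes (below). Asterisks mark called genes; for all 7 genes of the upper panel both se-1 p35S::MIR156 arrays lie above both se-1 arrays, with PYK10 in the lower panel at 2337 and 1545 in se-1 p35S::MIR156 and 639 and 933 in se-1.

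Of 10 tested stress and defence genes 3 fell with the transgene. COR15A, which protects chloroplast membranes in the cold, had signals of 531 and 927 in se-1 p35S::MIR156, against 2044 and 1419.8 in se-1 (log2 change -1.26, SE 0.250, adjusted p = 0.0436). Its Col-0 arrays, at 662 and 910.3, lay within the transgenic range, and the ago1-27 arrays, at 1725 and 2226, overlapped those of se-1. The related COR15B had 327 and 270.3 in se-1 p35S::MIR156 and 628 and 434 in se-1, without overlap and without a call (log2 change -0.78, 95% interval -1.46 to -0.10, adjusted p = 0.474). The dehydrin genes of the cold response were not called. COR47 had 1649 and 1914 in se-1 p35S::MIR156 and 1325 and 1327 in se-1 (log2 change 0.42, 95% interval 0.09 to 0.75, adjusted p = 0.417), and LTI30 had a log2 change of -0.36 (adjusted p = 0.688). In all, 1 of 4 tested members of the 16 cold and ABA response genes was called lower, beside 0.138% of all tested probe sets, with a median of -0.57. None of the 4 overlapped between the genotypes, with 3 lower in se-1 p35S::MIR156 and 1, COR47, higher. Such separation held for 24.7% of all tested probe sets in the lower direction and 17% in the higher.

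THI2.1, which encodes a thionin, a small antimicrobial peptide, was within background on both transgenic arrays, at 12.4 and 11.3, against 51.0 and 64.3 in se-1. It was at least 3.55-fold lower in se-1 p35S::MIR156 than in se-1, taking the brightest bacterial control as the level of the dim arrays (adjusted p = 0.0278), and it had 83.4 and 54.8 in ago1-27 and 51.4 and 59.8 in Col-0. Its relative THI2.2 had 486 and 596 in se-1 p35S::MIR156 and 552 and 478 in se-1, which overlapped (log2 change 0.06, 95% interval -0.33 to 0.46, adjusted p = 0.959). AT2G43620, one of a cluster of genes that the defence list holds as chitinases, had 107 and 89.6 in se-1 p35S::MIR156 and 236 and 299 in se-1 (log2 change -1.31, SE 0.216, adjusted p = 0.0120). The se-1 arrays were the highest of the 4 genotypes for this gene, with 111 and 78.9 in ago1-27 and 76.1 and 65.6 in Col-0. For the other 3 tested genes of the cluster both transgenic arrays lay below both se-1 arrays, as for 3926 (24.7%) of all tested probe sets, and none was called. AT2G43590 had 33.6 and 30.4 in se-1 p35S::MIR156 and 76.8 and 60.1 in se-1 (log2 change -0.81, 95% interval -1.38 to -0.24, adjusted p = 0.359), and AT2G43570 and AT2G43610 had log2 changes of -0.58 (adjusted p = 0.524) and -0.47 (adjusted p = 0.558). Of the 6 tested defence genes of 19, 2 were called lower, beside 0.138% of all tested probe sets, and the median was -0.70. Of these and COR15A, all 3 calls ended without se-1 p35S::MIR156 replicate 1, when se-1 replicate 2 was left out and when dim probe sets were kept, 2 without se-1 p35S::MIR156 replicate 2 (THI2.1, AT2G43620) and 2 without se-1 replicate 1 (THI2.1, COR15A), with adjusted p between 0.0532 and 0.409. Those of COR15A and THI2.1 also ended without either Col-0 array and with the 4 arrays alone (0.0517 to 0.0644), that of THI2.1 with pseudocount 64 (0.0600), and that of COR15A with pseudocount 1 (0.0621), robust estimation (0.0523) and no variance trend (0.210).

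Outside these lists, ECS1 had the largest rise, with 1371 and 885 in se-1 p35S::MIR156, against 255 and 252 in se-1 (log2 change 2.05, SE 0.279, adjusted p = 0.00302). The se-1 arrays, almost equal to each other, were the lowest of the series, with 2086 and 1188 in ago1-27 and 751 and 1309.9 in Col-0. AT3G02910 had 661 and 554 in se-1 p35S::MIR156 and 141 and 133 in se-1 (log2 change 2.02, SE 0.278, adjusted p = 0.00302). Here the transgenic arrays stood alone above all others, with 54.6 and 16.2 in ago1-27 and 165 and 179.8 in Col-0. ZW9 had 361 and 305 in se-1 p35S::MIR156 and 59.4 and 91.5 in se-1 (log2 change 1.95, SE 0.233, adjusted p = 0.000885), and 127 and 117 in ago1-27 and 222 and 142 in Col-0, so that its transgenic arrays were also the highest of the series. AT2G25510 had 678 and 699 in se-1 p35S::MIR156 and 181 and 203 in se-1 (log2 change 1.76, SE 0.261, adjusted p = 0.00542), with higher levels in ago1-27 (1751 and 822) and Col-0 (1017 and 789). AT4G11190 had 230.2 and 264 in se-1 p35S::MIR156 and 79.5 and 105 in se-1 (log2 change 1.29, SE 0.236, adjusted p = 0.0249), and 24.4 and 13.4 in ago1-27 and 169 and 120.3 in Col-0.

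Of the rises, 3 came from genes close to background in se-1. AT1G43590, annotated as a pseudogene, had 65.1 and 67.7 in se-1 p35S::MIR156, against 14.8 and 0.726 in se-1, both within background, so that it was at least 2.85-fold higher (adjusted p = 0.0110). It was within background in Col-0 as well (11.3 and 21.5) but high in ago1-27 (198 and 171). AT3G19550 had 66.6 and 75.6 in se-1 p35S::MIR156, against 12.8 and 12.1 within background in se-1, at least 3.05-fold higher (adjusted p = 0.0213). AT4G19380 had 117 and 95.2 in se-1 p35S::MIR156 and 24.6 and 13.5 in se-1, the lower of them within background (log2 change 1.82, SE 0.279, adjusted p = 0.00729). The 5 remaining rises with a named gene were between 0.78 and 1.20 on the log2 scale. They were those of AT2G36885 (1.20, adjusted p = 0.0138), AT2G46630 (1.09, 0.0272), AT2G44670 (0.93, 0.0412), AT1G15140 (0.92, 0.0436) and AT4G34950 (0.78, 0.0445). Of the 13 calls on rises outside the lists, that of ZW9 held whichever array was left out and also without the filter, that of ECS1 ended without se-1 p35S::MIR156 replicate 1 and with no filter, those of AT3G02910 and AT2G25510 ended without either transgenic array and with no filter, and those of AT4G19380, AT1G43590 and AT2G36885 also without se-1 replicate 2. The other 6 ended without the filter and when any of the 4 arrays was left out (adjusted p between 0.0502 and 0.582 over these settings), and of the 13, 4 (AT4G34950, AT1G15140, AT2G46630 and AT2G44670) also ended without either Col-0 array (0.0501 to 0.0991), 7 with a prior that ignores signal, 5 with pseudocount 1 and 3 with the 4 arrays alone (0.0566 to 0.192). The AT4G34950 call also ended with quantile normalization (0.0634).

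The largest fall was that of CYP71B22, a cytochrome P450 gene, with 62.9 and 54.4 in se-1 p35S::MIR156, against 304 and 607 in se-1 (log2 change -2.58, SE 0.283, adjusted p = 0.000491). Its se-1 replicates were far apart, yet the lower of them was several times the higher transgenic array. Levels were 654 and 523 in ago1-27 and 105 and 59.7 in Col-0, so that the 2 mutants without the transgene were high and the transgenic and wild-type apices low. AT3G28500 had 119.6 and 88.5 in se-1 p35S::MIR156 and 418 and 445 in se-1 (log2 change -1.91, SE 0.194, adjusted p = 0.000367), and 653 and 739 in ago1-27 and 239 and 189.7 in Col-0. AT4G34400 had 49.1 and 31.8 in se-1 p35S::MIR156 and 139 and 185 in se-1 (log2 change -1.66, SE 0.230, adjusted p = 0.00306), and 187 and 194 in ago1-27 and 70.7 and 98.3 in Col-0. In both genes the transgenic arrays were the lowest of the series. AT5G49120 had 23.8 and 28.2 in se-1 p35S::MIR156 and 74.1 and 96.0 in se-1 (log2 change -1.26, SE 0.218, adjusted p = 0.0162), and AT1G33110 had 72.6 and 58.4 in se-1 p35S::MIR156 and 169.8 and 139.9 in se-1 (log2 change -1.07, SE 0.203, adjusted p = 0.0314). AT5G05250 had 173 and 210.2 in se-1 p35S::MIR156 and 399 and 391 in se-1 (log2 change -0.99, SE 0.181, adjusted p = 0.0242). For this gene the transgenic arrays lay near ago1-27 (182 and 182) and Col-0 (163 and 152), and se-1 stood above the rest. AT3G06220 had 144 and 156 in se-1 p35S::MIR156 and 269 and 327 in se-1 (log2 change -0.92, SE 0.184, adjusted p = 0.0448). Of these 7 calls, those of CYP71B22 and AT3G28500 held without each array and with no filter, that of AT4G34400 ended without se-1 p35S::MIR156 replicate 2, when se-1 replicate 2 was left out and when dim probe sets were kept, that of AT5G49120 also without se-1 p35S::MIR156 replicate 1, and the other 3 when any one of the 4 arrays was left out and when dim probe sets were kept (adjusted p between 0.0570 and 0.458). The AT3G06220 call also ended without either Col-0 array (0.0800 and 0.0805), with pseudocount 1 (0.0566), quantile normalization (0.0615) or median centring (0.0514), and 3 calls each ended with a prior that ignores signal and with the 4 arrays alone (0.0571 to 0.127).

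Probe sets that the annotation table does not list made up 26 of the 57 calls (15 higher and 11 lower), or 45.6%, beside 42.6% of all tested probe sets. The largest rise among them had 1192 and 1101 in se-1 p35S::MIR156, against 260.2 and 299 in se-1 (log2 change 1.98, SE 0.205, adjusted p = 0.000367), and 58.4 and 89.9 in ago1-27 and 211 and 266 in Col-0. The next had 122 and 133 in se-1 p35S::MIR156 and 13.3 and 32.7 in se-1, with 1 se-1 array within background (log2 change 1.92, SE 0.313, adjusted p = 0.0110). In both the transgenic arrays exceeded every other array of the series. The largest fall had 56.1 and 58.2 in se-1 p35S::MIR156 and 257 and 311 in se-1 (log2 change -2.03, SE 0.197, adjusted p = 0.000367). The next was within background on both transgenic arrays, at 9.92 and 9.03, against 72.3 and 78.6 in se-1, at least 4.67-fold lower (adjusted p = 0.000491), with 156 and 167 in ago1-27 and 175 and 194 in Col-0.

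In the lists that follow no tested gene was called. Of 23 genes of the small RNA machinery 5 were tested, with log2 changes of -0.79 to 0.28 and a median of -0.16. The largest was that of AGO7, the Argonaute that acts in trans-acting siRNA production, with 29.0 and 57.3 in se-1 p35S::MIR156 and 69.9 and 98.8 in se-1 (log2 change -0.79, 95% interval -1.38 to -0.20, adjusted p = 0.382). TGH, an RNA-binding factor of microRNA processing, had 128 and 115 in se-1 p35S::MIR156 and 185 and 188 in se-1 (log2 change -0.56, 95% interval -0.96 to -0.17, adjusted p = 0.359). Neither gene overlapped between the genotypes, as for 24.7% of all tested probe sets in this direction. The 4 tested of 23 nuclear photosynthesis genes had changes of 0.12 to 0.27, the 3 tested of 15 leaf polarity genes -0.47 to -0.15, the 2 tested cytokinin response regulators -0.04 and 0.16, and the 1 tested cell cycle gene 0.10. Few members of these lists had a listed probe set, and over all 18 lists 50 of 252 genes were tested and 11 called, beside 0.358% of all tested probe sets. All 18 lists were written with earlier results of these data known. Neither this count nor those of single lists is therefore independent of the data.

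**Figure D4:**
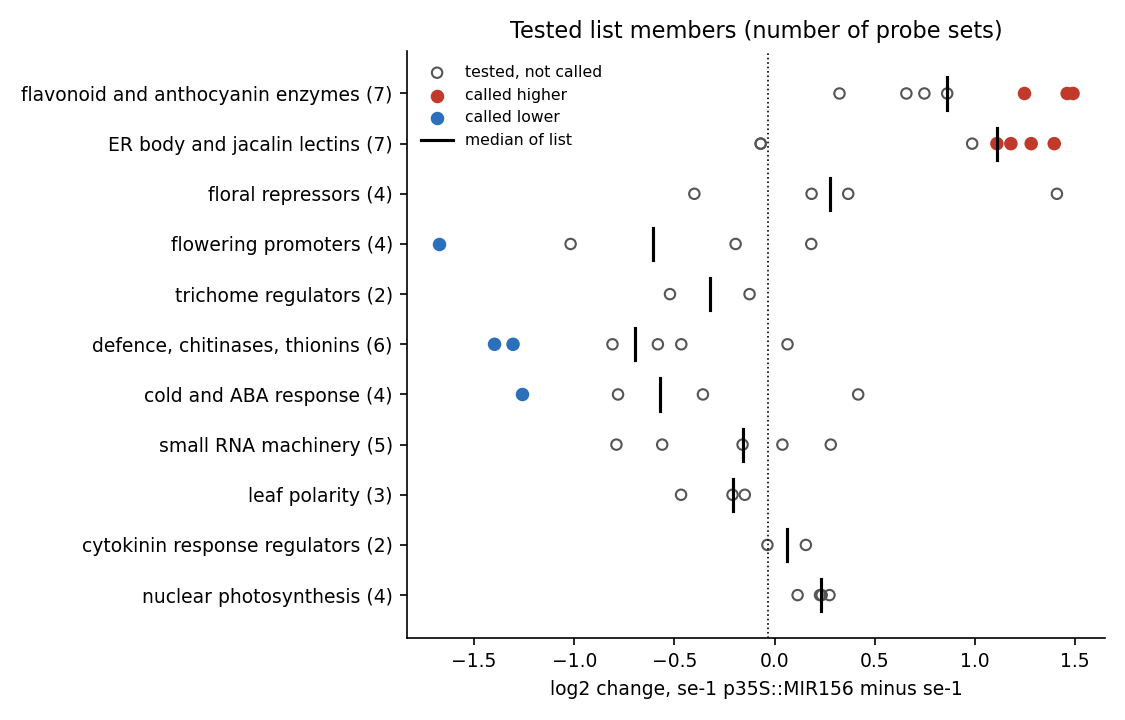
Each circle is a tested list member, placed by its log2 change, se-1 p35S::MIR156 minus se-1, with called members filled and the median of each list as a bar; numbers in brackets count probe sets and the dotted line is the median of all tested probe sets, -0.03. The flavonoid and ER body lists have medians of 0.86 and 1.11, the defence list -0.70.

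The called probe sets were then followed in ago1-27, an Argonaute mutant without the transgene, set against Col-0. Those 4 arrays are not part of the comparison above and share with it the estimate of the spread and the filter on dim probe sets, which used the mean over all 8 arrays. Of the 57 probe sets, 52 (91.2%) had the opposite sign in ago1-27 minus Col-0, beside 60.5% of all 15922 tested. Of the 35 higher in se-1 p35S::MIR156, 32 had a negative change in ago1-27, with a median of -0.88, and 14 were called lower there, beside 0.911% of all tested probe sets. Of the 22 lower in se-1 p35S::MIR156, 20 had a positive change in ago1-27, with a median of 0.61, and 9 were called higher there, beside 0.754%. Among all 7103 tested probe sets with a positive change in se-1 p35S::MIR156, 58.5% had the opposite sign and 121 were called lower in ago1-27. Among all 8819 with a negative change, 62.0% had the opposite sign and 86 were called higher in ago1-27. Within the 57, PYK10 had the largest difference between ago1-27 and Col-0 (log2 change -3.24, adjusted p = 3.96e-06). Its signals were 211 and 123 in ago1-27 and 1648 and 1678 in Col-0. JAL22 (-2.40, adjusted p = 1.05e-05), AT4G11190 (-2.20, 0.000114), JAL33 (-2.08, 1.61e-05), AT3G02910 (-1.98, 0.00129), JAL34 (-1.73, 0.000160) and AT2G44670 (-0.89, 0.0203) were also called lower in ago1-27. CYP71B22 was called higher, at 654 and 523 in ago1-27 and 105 and 59.7 in Col-0 (log2 change 2.65, adjusted p = 0.000114), as were AT3G28500 (1.63, 0.000311), COR15A (1.32, 0.0123), AT1G33110 (1.01, 0.0177) and AT4G34400 (1.05, 0.0286). DFR and AGL42 missed the threshold in ago1-27, with log2 changes of -0.96 (adjusted p = 0.0592) and 0.91 (adjusted p = 0.0816). AT1G43590 was called higher in both comparisons (log2 change 2.64 in ago1-27, adjusted p = 0.000207), and ECS1 and AT2G25510 had positive changes in both. Actin 3' to 5' ratios were 4.83 and 4.40 in ago1-27 and 3.91 and 2.81 in Col-0. GAPDH ratios were 1.55 and 1.41 in ago1-27 and 1.40 and 1.21 in Col-0. The part of RNA integrity and labelling in these differences was not tested.

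**Figure D5:**
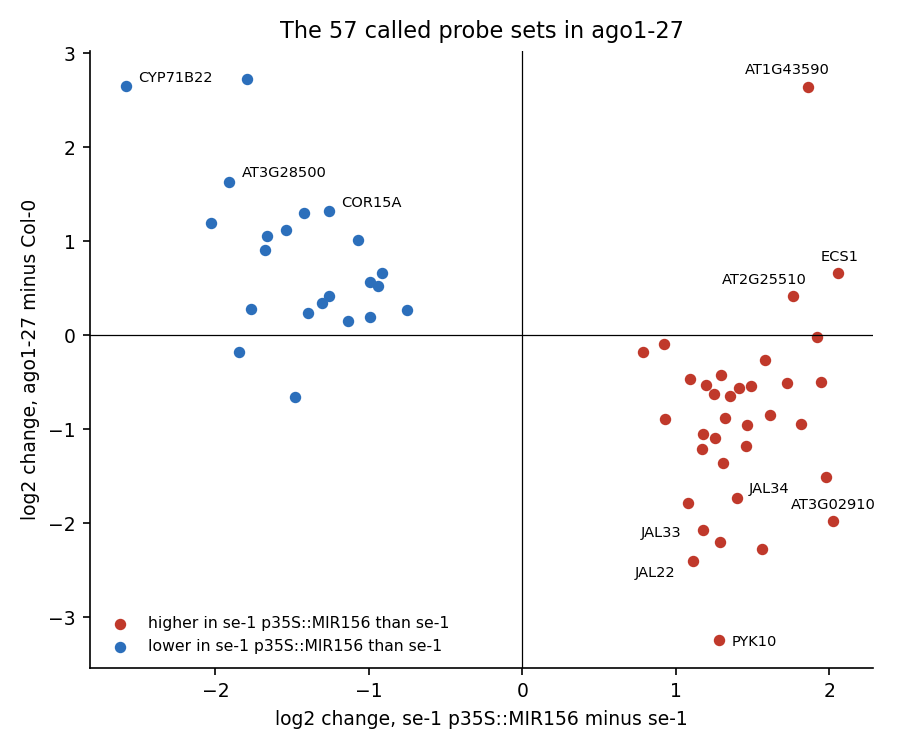
Each point is 1 of the 57 called probe sets, with its log2 change in se-1 p35S::MIR156 minus se-1 on the horizontal axis and in ago1-27 minus Col-0 on the vertical axis; the 2 axes share no array. Of the points, 52 lie at the upper left and lower right, with PYK10 lowest at -3.24.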

How the data were processed

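Total RNA of vegetative apices was labelled in a single amplification round and hybridized to single-colour Affymetrix ATH1 arrays, per the labels' protocols, 2 arrays for each of 4 genotypes. The deposited table holds intensity values on a linear scale, 1 per probe set; per the submitters' processing notes GCOS was used, and its version and signal algorithm are not given in the sources used here. The authors' scaling left a 2% trimmed mean of 200.0 on every array. There are no detection calls, and the number of arrays limits the precision. Groups were taken from the genotype in the labels.

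The 64 control probe sets and the dimmest 30% of the other 22746, by mean over 8 arrays, were left out, and 15922 were tested on log2(signal + 16), so changes of dim probe sets are understated. All 8 arrays were modelled with a mean for each genotype (lmFit and eBayes with trend = TRUE in limma 3.58.1 under R 4.3.3, two-sided, 4 residual and 11.27 prior degrees of freedom), with Benjamini-Hochberg adjustment over all tested probe sets and a threshold of 0.05. The procedure was tested only on simulated data with normal noise of the fitted spread. Those data do not bear on how the calls depend on the filter or on single arrays. Where both arrays of a genotype lay within background, a fold is a bound: the geometric mean signal of the brighter genotype divided by that of the brightest bacterial controls. An annotation table pairs 13513 probe sets with 1 gene (13436 matched to the RefSeq genes of TAIR10.1), 503 with several and 8730 with none.

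The comparison, the 18 gene lists and the alternatives were chosen with earlier results of these data known, and the counts in ago1-27 were added after the data were seen. All called probe sets with 1 gene could be named. The 12 largest rises and falls without overlap were to have every array's value, as were all tested flowering, SPL and flavonoid genes, up to 6 members of other lists, SE, and the 2 largest rises and 2 largest falls without a listed gene. Alternatives were the pseudocount, the filter, the scaling, the variance prior, the arrays fitted, a replicate block and leaving out each array.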

Additional observations from a re-analysis of the deposited data

How the results depend on the processing

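The number of probe sets called was 15 with no filter on dim probe sets (7 higher and 8 lower in se-1 p35S::MIR156), 25 with eBayes without a trend (12 higher and 13 lower), and between 42 and 64 with pseudocount 1 or 64, the lowest 50% left out, quantile or median scaling, robust eBayes or only the 4 arrays of the 2 genotypes. Leaving out 1 of the 8 arrays gave 10 to 76 calls, 3 to 48 higher and 7 to 29 lower. The number with the opposite sign in ago1-27 was 50 to 52 under the alternatives added after seeing the data. With the replicate number as a block 59 were called, 55 of them shared with the 57, and of the named calls only that of AT4G34950 ended (adjusted p = 0.0558). Nothing in the labels pairs equal numbers, and the deviations of replicate 1 from the genotype means correlated across probe sets with r = -0.13 between se-1 p35S::MIR156 and se-1. With the se-1 numbers exchanged in the block, an alternative added after seeing the data, 125 were called, 82 higher and 43 lower. Over 61 named probe sets and 18 alternatives, 907 results kept their sign and side of the threshold, 170 calls ended, 1 began (NAI2) and 5 reversed. All 5 reversals came from leaving out an array and touched changes that were never called: those of AGL19 (-0.42 to 0.027), AGL24 (-0.063 to 0.43), JAL23 (-0.39 to 0.25) and THI2.2 (-0.078 to 0.21). The cause of these changes was not tested. With no filter, dim probe sets are added to those tested and also enter the fit of the variance prior, and the part of each was not tested. Scaling moved the median of all tested probe sets by at most 0.04. Where a fit leaves 1 array in a genotype, that array is assumed to vary like the others. Signals within background limit what can be said of 7 of the 57 calls.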

Other observations

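Families formed from gene symbols after the data were seen gave further values for the same comparison, and a member to which the annotation gives no such symbol is not counted in them. Of 11 tested genes with a CYP symbol, which encode cytochrome P450 enzymes, CYP71B22 was the only one called. The median log2 change of the 11 was 0.09. All but CYP84A4 and CYP78A9 are CYP71B genes, so these values do not describe the cytochrome P450 family as a whole. Among 26 tested glycosyltransferase genes with a UGT symbol, UF3GT counted with them, UF3GT was called higher, and the median was 0.05 with a lowest change of -0.51 for UGT71B1. AT4G14090, the UGT75C1 of the flavonoid list, has no such symbol in the annotation and stands outside the 26, so that at least 2 tested glycosyltransferase genes were called. Of 12 tested beta-glucosidase genes PYK10 alone was called, with a median of -0.01 and a lowest change of -0.34 for BGLU44. None of 8 GST, 9 expansin, 5 WRKY or 4 bHLH genes was called, and their medians lay between -0.19 and 0.09. The 3 jacalin lectin genes called higher, which are those already given with the ER body list, were 3 of 4 tested. Over all tested probe sets 0.22% were called higher and 0.138% lower. No family was tested as a set.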
